A study of Mus musculus with 9 samples.

Results

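The endoplasmic reticulum genes described here encode the machinery that brings new proteins into the reticulum, folds them there and removes those that do not fold. The list was taken by gene symbol and held 48 genes, 21 for folding, 17 for translocation and processing, and 10 for degradation. All 48 were in the table of 17314 genes, and 47 passed the expression filter that 13044 genes passed. The exception was Derl3, a derlin of the degradation machinery, with a count of 0 in 5 of the 9 libraries and 1 to 4 in the others. Because the filter keeps genes with enough reads in some libraries, values below refer to the 47 genes that passed unless all 48 are named.

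RNA came from gastrocnemius, the large calf muscle, of mice aged 6 months (labelled youth), 15 months (labelled mid) and 21 months (labelled old). Each age had 3 libraries, which the design text describes as 3 mice per age. The labels name no strain, sex, genotype or treatment. All groups are whole muscle, so each value mixes fibres with other cells, and fewer cells of a type cannot be told apart from less RNA per cell. The comparisons ask how the genes differed at 21 against 6 months, 15 against 6 months and 21 against 15 months, and in the mean of 15 and 21 months against 6 months. The series title places the study in skeletal muscle aging.

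Proteins bound for secretion, membranes or organelles enter the reticulum through the Sec61 channel, lose their signal peptide and receive sugar chains on the way in. Inside, the chaperone BiP (Hspa5), the lectins calnexin and calreticulin and a family of protein disulfide isomerases fold them, and chains that fail are passed back to the cytosol for the proteasome. When unfolded chains build up, the unfolded protein response, whose factors include Xbp1 and Atf6, raises transcription of much of this machinery. In muscle the reticulum is also the sarcoplasmic reticulum, the calcium store for contraction.

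Total estimated counts ranged from 15354396 to 17317856 per library. Muscle markers were abundant in every library, and most had a lower mean in the older mice. Their sum in mouse 3 at 15 months, 178900 CPM, lay within the 6-month range of 171400 to 181100 CPM. Acta1, the skeletal actin, measured 29810 to 31280 CPM (counts scaled to library size with TMM factors) at 6 months, 20880 to 28220 CPM at 15 months and 22130 to 24020 CPM at 21 months, with no overlap between 6 months and either older age. Of 10 muscle markers 8 had a negative log2 fold change at 21 against 6 months, where 48% of all tested genes had a positive one. Without overlap 4 were lower, against 8.31% of all tested genes, and 2 were lower at an unadjusted p under 0.05 in edgeR, against 5.5%. The exceptions in sign were Mb and Myh1, with means of 2184 and 3188 CPM at 21 months, against 885 and 1914 CPM at 6 months. On the first principal component of all genes, which held 35.2% of the variance, 3 libraries lay farthest out, mouse 2 at 6 months, mouse 1 at 15 months and mouse 3 at 21 months. Slow fibre markers, a list that also holds Myh2, a fast IIA myosin, summed to 1951, 111 and 776 CPM in mice 1, 2 and 3 at 6 months. The sums were 5707, 3520 and 1249 CPM at 15 months and 1557, 1359 and 4832 CPM at 21 months. The 3 libraries farthest out held the lowest sum of the series and the 2 highest. Myh2 made up most of the sum in every library but mouse 2 at 6 months. It stood at 1611, 0.751 and 530 CPM at 6 months and 4395, 2825 and 834 CPM at 15 months. At 21 months it stood at 1267, 967 and 3642 CPM. Myh7, the slow myosin, stood at 2.3, 0.438 and 12.8 CPM at 6 months and 166, 49.7 and 22.7 CPM at 15 months. Its values at 21 months were 4.69, 18.7 and 156 CPM. Among the slow fibre markers 12 of 12 had a positive log2 fold change at 21 against 6 months, and none was at 0 in all libraries. The part of either marker list in the results below was not tested, and the counts of members were also taken without these 3 libraries.

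Promoters of several of these genes carry the endoplasmic reticulum stress element, to which the factors of the unfolded protein response bind. Sequences of 250 bases before to 50 after a start site, from RefSeq on GRCm38.p6, were found for 39 of the 48 genes. Both strands were searched for the stress element (ERSE, CCAAT and CCACG with 9 bases of any kind between them), its second form (ERSE-II, ATTGG and CCACG with 1 base between them) and the core of the unfolded protein response element (UPRE, TGACGTG), and no match of one overlapped a match of another in these genes. Only exact matches were counted, so near matches, which a promoter may also hold, were missed. An ERSE was present in 9 of 39 members, or 23.1%, against 0.164% of the 10370 tested genes with a promoter sequence and 0.137% of all 27025 genes in the promoter table. The holders were 7 of 18 folding genes, 0 of 12 translocation genes and 2 of 9 degradation genes. The element was first defined on promoters of chaperone genes, Hspa5 among them, so its presence in those is background rather than a result. An ERSE-II was present in 2 members, Dnajb11 and Herpud1, or 5.13% against 0.0868% of tested genes, and a UPRE in 3, Hspa5, Txndc5 and Txndc11, or 7.69% against 3.16% of tested genes.

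The 6 promoters printed here are those of 4 chaperone and isomerase genes with an ERSE whose levels are described next, of Herpud1 with an ERSE-II, and of Pdia4. The Pdia4 promoter holds no exact match to any of the 3 elements. The other ERSE holders were Calr, Dnajc3, Creld2, Syvn1 and Derl3. Pdia3, Dnajb9 and Sdf2l1 held no exact match to them either, and Manf and Hyou1 had no sequence. Whether an element goes with a difference between ages was not tested. They read 5′ to 3′ on the strand of the gene, and capitals mark the fixed letters of each match. Hspa5 lies at chr2:34771840-34772139 on the plus strand, with its ERSE starting 65 bases and its UPRE 157 bases before the start site. Hsp90b1 lies at chr10:86705395-86705694 on the minus strand, with ERSE matches starting 212 bases before the start site on the strand of the gene and 107 bases before it on the opposite strand. Canx lies at chr11:50325624-50325923 on the minus strand, Pdia6 at chr12:17266339-17266638 on the plus strand, Herpud1 at chr8:94386179-94386478 on the plus strand and Pdia4 at chr6:47813463-47813762 on the minus strand.
Hspa5: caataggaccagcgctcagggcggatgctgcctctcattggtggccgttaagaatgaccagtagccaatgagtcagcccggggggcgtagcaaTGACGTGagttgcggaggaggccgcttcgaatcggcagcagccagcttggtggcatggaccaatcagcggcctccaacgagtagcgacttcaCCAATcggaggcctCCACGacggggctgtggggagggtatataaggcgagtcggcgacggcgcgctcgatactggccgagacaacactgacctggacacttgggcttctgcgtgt
Hsp90b1: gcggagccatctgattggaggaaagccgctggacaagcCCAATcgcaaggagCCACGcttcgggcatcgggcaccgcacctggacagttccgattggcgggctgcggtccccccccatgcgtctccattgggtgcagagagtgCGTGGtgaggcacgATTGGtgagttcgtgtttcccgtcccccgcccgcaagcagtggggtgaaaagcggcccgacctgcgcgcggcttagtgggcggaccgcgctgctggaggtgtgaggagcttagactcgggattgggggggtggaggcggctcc
Canx: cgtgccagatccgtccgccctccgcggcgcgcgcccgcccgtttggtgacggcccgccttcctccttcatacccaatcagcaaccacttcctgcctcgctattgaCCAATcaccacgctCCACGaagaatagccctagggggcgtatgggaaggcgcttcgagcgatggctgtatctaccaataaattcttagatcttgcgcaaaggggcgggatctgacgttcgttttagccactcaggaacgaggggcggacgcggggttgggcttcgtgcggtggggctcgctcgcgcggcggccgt
Pdia6: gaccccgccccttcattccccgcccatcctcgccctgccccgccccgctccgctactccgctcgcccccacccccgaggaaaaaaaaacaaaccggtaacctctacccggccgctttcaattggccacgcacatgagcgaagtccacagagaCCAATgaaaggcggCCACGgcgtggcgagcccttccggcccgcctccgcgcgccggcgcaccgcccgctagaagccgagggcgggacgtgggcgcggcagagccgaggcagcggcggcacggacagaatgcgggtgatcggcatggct
Herpud1: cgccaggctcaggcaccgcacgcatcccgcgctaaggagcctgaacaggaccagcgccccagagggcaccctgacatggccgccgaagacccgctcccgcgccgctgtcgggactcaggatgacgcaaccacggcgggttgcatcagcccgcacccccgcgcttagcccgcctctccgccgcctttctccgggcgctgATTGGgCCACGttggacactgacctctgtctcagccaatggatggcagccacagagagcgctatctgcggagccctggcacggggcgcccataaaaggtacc
Pdia4: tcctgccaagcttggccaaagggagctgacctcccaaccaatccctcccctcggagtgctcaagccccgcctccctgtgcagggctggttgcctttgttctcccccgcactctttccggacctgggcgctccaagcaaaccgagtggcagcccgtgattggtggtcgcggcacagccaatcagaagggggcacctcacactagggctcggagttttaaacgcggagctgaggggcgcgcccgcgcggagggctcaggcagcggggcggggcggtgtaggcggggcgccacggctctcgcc

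**Figure D1:**
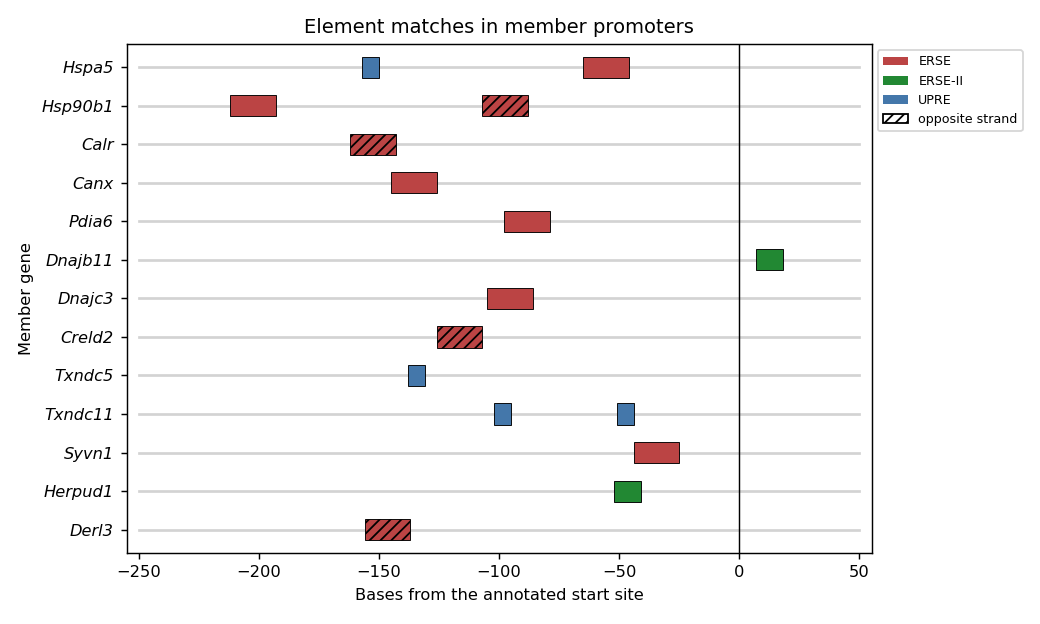
Matches of the ERSE (red), ERSE-II (green) and UPRE (blue) in promoters of the 13 member genes that hold any, by bases from the annotated start site, with hatching for matches on the strand opposite to the gene. Each match lies before the start site except the ERSE-II of Dnajb11, and the translocation genes are not among the 13 because none of the 12 with a sequence held a match.

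Most of the 47 genes had a higher mean in older muscle, and the folding genes had the largest differences. At 21 against 6 months 41 of 47 members had a positive log2 fold change, where 48% of all tested genes did, with a median of 0.23 against -0.01 over all tested genes. Folding genes had a median of 0.40 with 20 of 21 positive, translocation genes 0.17 with 15 of 17 positive, and degradation genes 0.16 with 6 of 9 positive. Leaving out mouse 3 at 6 months gave the degradation genes a median of 0.03, and leaving out mouse 2 at 21 months gave 0.09. The summed level of the 21 folding genes was 1659, 1668 and 1672 CPM in the 3 mice at 6 months, 2011, 2837 and 2074 CPM at 15 months and 2788, 2806 and 2343 CPM at 21 months. Each older mouse lay above each 6-month mouse in this sum, in which abundant genes such as Hspa5 weigh most. The sums of the translocation genes overlapped, at 1198, 1389 and 1247 CPM at 6 months, against 1456, 1511 and 1368 CPM at 21 months. Those of the degradation genes overlapped too, and at 15 months both did. The members were chosen with earlier results of these data known, so these summaries are descriptions.

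In single-gene tests with edgeR, adjusted over all 13044 genes, 0 of 47 members passed 0.05 at 21 against 6 months, where 0.0153% of all tested genes passed. At an unadjusted p under 0.05, 18 members were higher, 15 of them folding and 3 translocation genes, against 5.14% of all tested genes. None of the 47 was lower at that level, against 5.5% of all genes. DESeq2 called 10 members higher, all of them folding genes, against 0.736% of all genes, and 0 lower, against 0.798%. In 22 members all 3 mice at 21 months lay above all 3 at 6 months, against 7.81% of all genes, and these were 16 folding and 6 translocation genes. In 0 members did all lie below, against 8.31% of all genes.

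**Figure D2:**
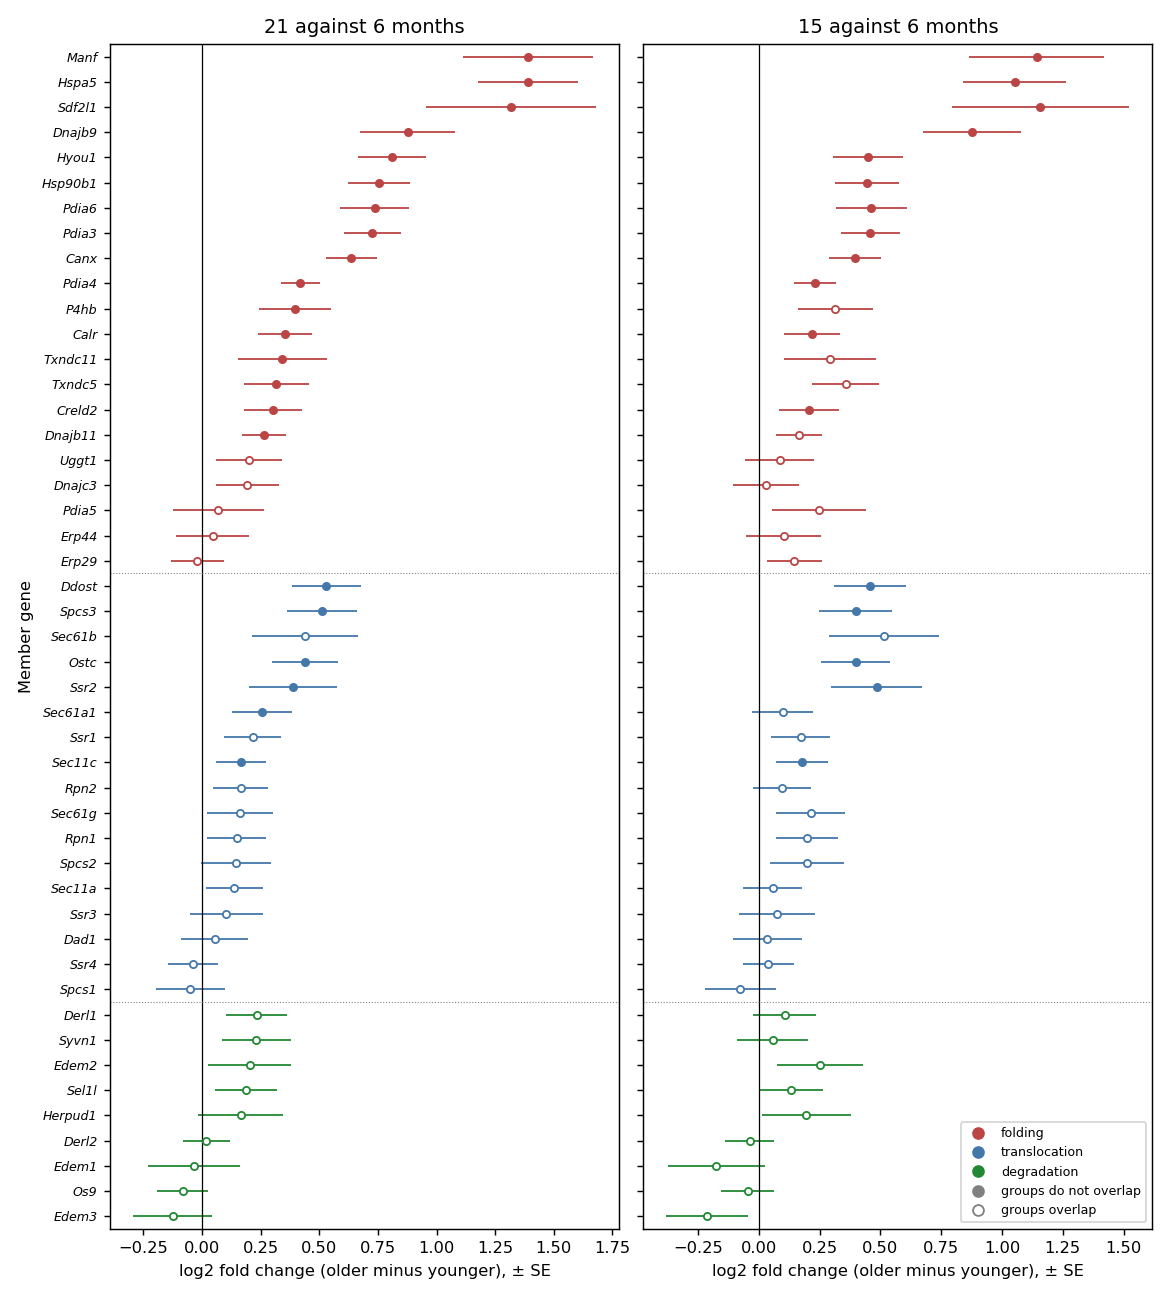
Fitted log2 fold change of each of the 47 members at 21 against 6 months (left) and 15 against 6 months (right), with bars for the standard error, colour for the role, and filled points where the 3 mice of each age do not overlap. Folding genes reach 1.39 at 21 against 6 months, translocation genes 0.53 and degradation genes 0.23; both panels share the 6-month mice.

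Manf, Hspa5 and Sdf2l1 had the largest fitted log2 fold changes at 21 against 6 months. Hspa5, the main chaperone of the reticulum (Entrez ID 14828, chromosome 2, 34772090 to 34776529 on GRCm38.p6, the build of the other positions too), measured 227, 228 and 255 CPM in mice 1, 2 and 3 at 6 months, 396, 683 and 393 CPM at 15 months and 677, 664 and 515 CPM at 21 months. Every older mouse lay above every 6-month mouse, and mouse 2 at 15 months was the highest of the 9. The log2 fold change was 1.39 (SE 0.21) at 21 against 6 months, 2.62-fold, with an adjusted p of 0.0585 in edgeR and 1.35e-07 in DESeq2. Without mouse 2 at 15 months, which is of neither age compared, edgeR called Hspa5 at 21 against 6 months (adjusted p = 0.0319). At 15 against 6 months its log2 fold change was 1.05 (SE 0.21), with adjusted p of 0.194 and 0.000538 by the same tools. The deposited Hspa5 counts were whole numbers in 1 of 9 libraries only, so its level may rest in part on how reads were divided between similar sequences and is uncertain to that extent.

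In the mean of 15 and 21 months against 6 months, edgeR called 1 of 47 members, Hspa5, where 0.276% of all tested genes passed and 0.092% passed and were higher, with a log2 fold change of 1.22 (SE 0.19, edgeR adjusted p = 0.0419). It was higher in 6 of 6 older mice than in any of the 3 younger ones. The pass did not hold without the 3 libraries far out on the first principal component (adjusted p = 0.139), with total count scaling (0.0538) or with the replicate number as a block (0.0949). It held in 2 of the 9 fits without 1 library, those without mouse 1 or mouse 3 at 15 months, while its log2 fold change stayed between 1.06 and 1.29 in all 9. In the same contrast 20 members had an unadjusted p under 0.05 and were higher, against 6.31% of all genes, and 0 were lower, against 7.25%. DESeq2 called 12 higher, against 1.08%, and 0 lower, against 1.45%. All 6 older mice lay above all 3 at 6 months in 17 members, against 3.48% of all genes, and below them in 0, against 3.6%. A positive log2 fold change was seen in 41, against 48.5%.

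Manf, a secreted protein that binds BiP (Entrez ID 74840, chromosome 9, 106888753 to 106891938), measured 23.0, 15.0 and 23.7 CPM at 6 months, 32.9, 68.6 and 34.7 CPM at 15 months and 58.8, 56.0 and 46.9 CPM at 21 months. Its older mice all lay above its younger ones, with a log2 fold change of 1.39 (SE 0.28, edgeR adjusted p = 0.0968, DESeq2 adjusted p = 0.000173) at 21 against 6 months. Sdf2l1, which works with the BiP co-chaperone Dnajb11, was of low level, at 2.51, 1.31 and 2.70 CPM at 6 months, 3.66, 7.52 and 3.41 CPM at 15 months and 6.85, 5.07 and 4.38 CPM at 21 months. The difference at 21 against 6 months was 1.32 (SE 0.36) on the log2 scale, without overlap between these ages. Its adjusted p was 0.227 in edgeR and 0.0322 in DESeq2.

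Co-chaperones that feed substrates to BiP differed among themselves. Dnajb9, also known as ERdj4, stood at 67.6, 71.5 and 60.3 CPM at 6 months, 99.3, 172 and 95.3 CPM at 15 months and 119, 130.1 and 117 CPM at 21 months. Its log2 fold change was 0.88 (SE 0.20, edgeR adjusted p = 0.152) at 21 against 6 months and 0.88 (SE 0.20, edgeR adjusted p = 0.245) at 15 against 6 months, and its means at 21 and 15 months were within 1 CPM of each other, with mouse 2 at 15 months the highest of all. Without that mouse the log2 fold change at 15 against 6 months was 0.55. Dnajb11 and Dnajc3, other J-domain partners, averaged 53.3 ± 2.32 and 103 ± 14.3 CPM at 21 months, against 44.3 ± 2.33 and 89.9 ± 6.43 CPM at 6 months (SD over 3 mice). Their log2 fold changes of 0.27 (SE 0.09) and 0.19 (SE 0.14) were smaller than that of Dnajb9. Hyou1, which exchanges the nucleotide on BiP (Entrez ID 12282, chromosome 9, 44379490 to 44392369), was tight at 6 months, with 32.9, 33.1 and 33.8 CPM, and stood at 39.8, 55.1 and 41.3 CPM at 15 months and 62.4, 64.0 and 48.7 CPM at 21 months. Its log2 fold change at 21 against 6 months was 0.81 (SE 0.14, edgeR adjusted p = 0.0698), with no overlap.

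Hsp90b1, the Hsp90 of the reticulum (Entrez ID 22027, chromosome 10, 86690841 to 86705444), measured 184, 183 and 196 CPM at 6 months, 254, 294 and 218 CPM at 15 months and 349, 329 and 272 CPM at 21 months. The 15- and 21-month mice overlapped each other, and none overlapped the 6-month mice. At 21 against 6 months its log2 fold change was 0.76 (SE 0.13), and the adjusted p was 0.0698 in edgeR and 4.49e-05 in DESeq2. On the opposite strand, 1810014B01Rik covers 10.3% of its exon bases. The lectin chaperone Canx, a membrane protein that holds sugar-bearing chains (Entrez ID 12330, chromosome 11, 50293957 to 50325673), measured 121, 128 and 112 CPM at 6 months, 152, 175 and 149 CPM at 15 months and 201, 191 and 169.9 CPM at 21 months. Its log2 fold change was 0.64 (SE 0.11, edgeR adjusted p = 0.0698), against 0.35 (SE 0.12, edgeR adjusted p = 0.306) for Calr, its soluble relative, which also buffers calcium. Calr averaged 231 ± 17.3 CPM at 21 months, against 181 ± 8.38 CPM at 6 months (SD over 3 mice), and these ages did not overlap. Uggt1, which tags unfolded chains for another round with the lectins, averaged 112 ± 17.9 CPM at 21 months, against 97.1 ± 9.44 CPM at 6 months, and the mice of these ages overlapped.

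Among disulfide isomerases Pdia3, Pdia6 and Pdia4 had the smallest p-values in edgeR at 21 against 6 months, and Pdia3 and Pdia6 the larger differences. Pdia3, the partner of calnexin and calreticulin (Entrez ID 14827, chromosome 2, 121413902 to 121438687), measured 76.1, 61.4 and 78.0 CPM at 6 months, 92.2, 112 and 91.7 CPM at 15 months and 123, 121 and 112 CPM at 21 months. No mice of different ages overlapped, although mouse 3 at 21 months and mouse 2 at 15 months were within 1 CPM of each other. The log2 fold change at 21 against 6 months was 0.73 (SE 0.12, edgeR adjusted p = 0.0698, DESeq2 adjusted p = 4.49e-05). Pdia6, an isomerase that associates with BiP, stood at 54.9, 57.4 and 59.2 CPM at 6 months, 67.9, 98.7 and 69.8 CPM at 15 months and 104, 97.2 and 84.0 CPM at 21 months, with 0.74 (SE 0.15, edgeR adjusted p = 0.0968) at 21 against 6 months. Pdia4 had a smaller and more even difference, with 20.9, 20.0 and 22.4 CPM at 6 months, 24.4, 25.3 and 24.7 CPM at 15 months and 28.5, 28.9 and 27.3 CPM at 21 months. Its 3 ages did not overlap, and its log2 fold change was 0.42 (SE 0.08, edgeR adjusted p = 0.0984).

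**Figure D3:**
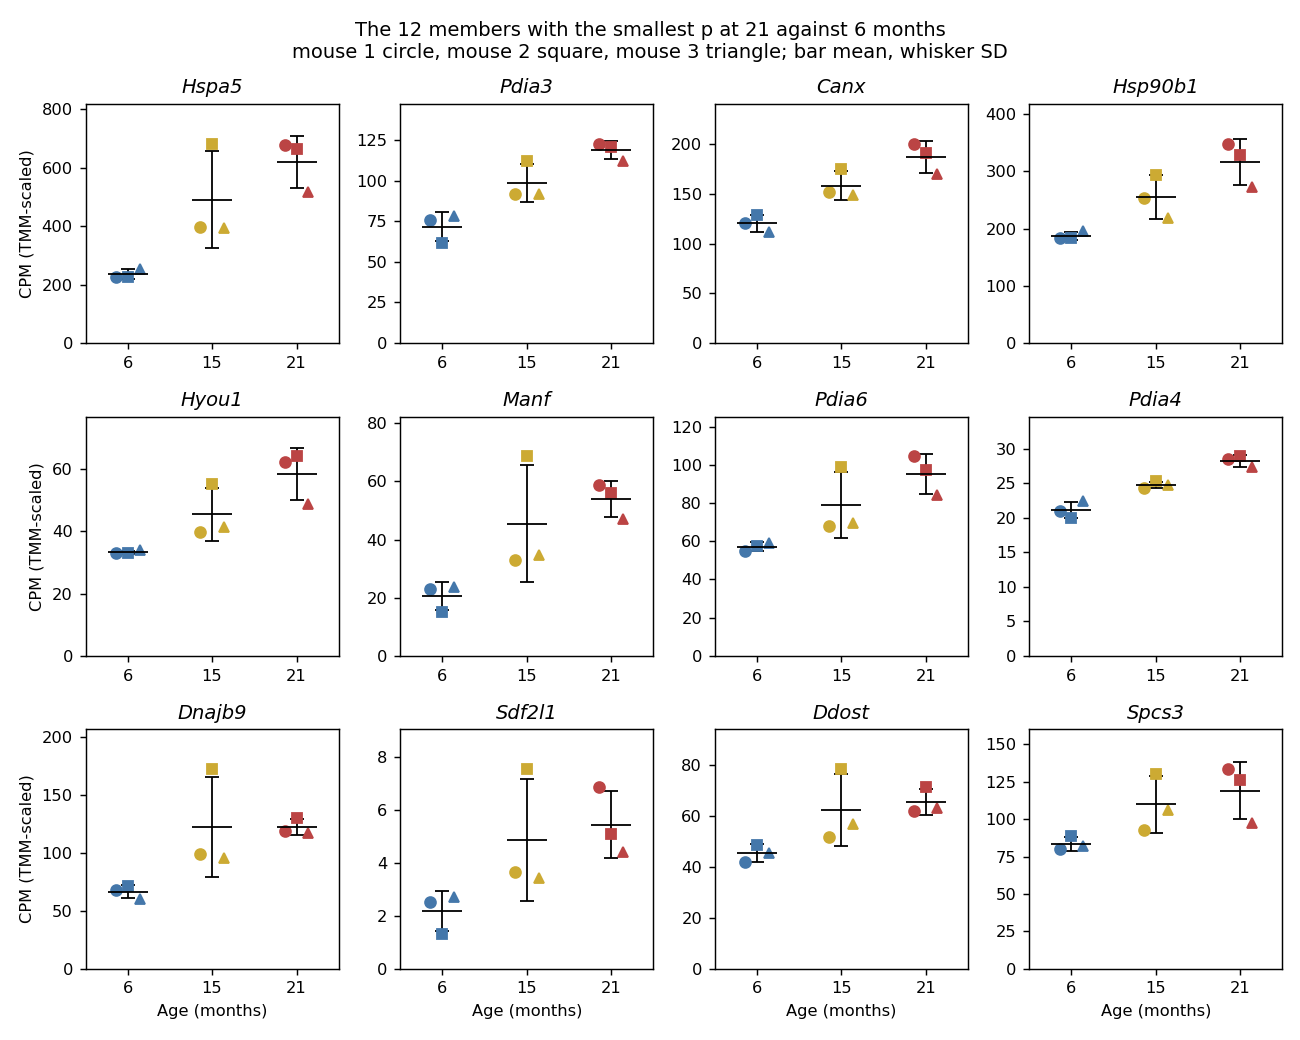
CPM with TMM scaling by age in months for the 12 members with the smallest p at 21 against 6 months, 1 point per mouse, a bar for the mean and whiskers for the SD (n = 3). The 21-month mice lie above the 6-month mice in each panel, and mouse 2 at 15 months (square) lies above the other mice of its age in each.

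P4hb, the classical isomerase and a subunit of the collagen prolyl hydroxylase, had the highest level per length in the list, 115 CPM per kilobase of exon over the 9 libraries, followed by Ssr3 at 112 and Hspa5 at 106. It stood at 276, 296 and 257 CPM at 6 months, 284, 424 and 323 CPM at 15 months and 354, 409 and 329 CPM at 21 months. Its 21-month mice lay above its 6-month mice, with a log2 fold change of 0.40 (SE 0.15, edgeR adjusted p = 0.386). Creld2, a stress-inducible protein of the reticulum, averaged 7.48 ± 0.225 CPM at 21 months, against 6.06 ± 0.513 CPM at 6 months, and Txndc5, a thioredoxin-domain isomerase, 53.2 ± 2.55 and 42.7 ± 5.29 CPM (SD, n = 3 each), with log2 fold changes of 0.30 (SE 0.12) and 0.32 (SE 0.14). For both the 21-month mice lay above the 6-month mice. Txndc11, another thioredoxin-domain protein, had 0.34 (SE 0.19).

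The remaining folding genes had log2 fold changes below their SE at 21 against 6 months. Erp29, an isomerase relative without the active-site cysteine pair, stood at 22.4, 23.0 and 18.5 CPM at 6 months, 25.4, 24.2 and 21.0 CPM at 15 months and 20.3, 20.9 and 21.7 CPM at 21 months, with overlap throughout and a log2 fold change of -0.02 (SE 0.11) at 21 against 6 months. This sign was positive under other settings, among them total count scaling at 0.06. In the annotation 24.4% of Erp29 exon bases lie on exons of Naa25 on the opposite strand, and the sources used here do not state whether counting used the strand. Erp44, which retains client proteins in the early secretory pathway, had 0.04 (SE 0.16), and Pdia5 had 0.07 (SE 0.19) from a low level of 2.57 to 4.04 CPM.

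Genes of translocation and processing had log2 fold changes of at most 0.53, and 3 of the 17 had an unadjusted p under 0.05 at 21 against 6 months. Ddost, a subunit of the oligosaccharyltransferase that adds sugar chains (Entrez ID 13200, chromosome 4, 138304738 to 138312619), measured 41.7, 48.7 and 45.4 CPM at 6 months, 51.8, 78.2 and 56.5 CPM at 15 months and 62.0, 71.2 and 63.0 CPM at 21 months. It had the largest difference of its role, a log2 fold change of 0.53 (SE 0.15, edgeR adjusted p = 0.228, DESeq2 adjusted p = 0.0684). Spcs3, a subunit of the signal peptidase (Entrez ID 76687, chromosome 8, 54520433 to 54529998), measured 79.8, 88.4 and 81.9 CPM at 6 months, 92.9, 130.3 and 106 CPM at 15 months and 133, 126 and 97.4 CPM at 21 months. Both genes kept every older mouse above every 6-month mouse. The log2 fold change of Spcs3 was 0.51 (SE 0.15, edgeR adjusted p = 0.247).

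Other subunits of the same complexes had smaller values. In the oligosaccharyltransferase Ostc stood at 0.44 (SE 0.14, unadjusted p of 0.0108 in edgeR, adjusted p = 0.296), Rpn1 at 0.15 (SE 0.13), Rpn2 at 0.17 (SE 0.12) and Dad1 at 0.05 (SE 0.14) on the log2 scale at 21 against 6 months. In the signal peptidase Spcs2 stood at 0.15 (SE 0.15), and the catalytic subunits Sec11a and Sec11c at 0.14 (SE 0.12) and 0.17 (SE 0.11). Spcs1, the most negative of the role, stood at 85.3, 115 and 78.2 CPM at 6 months, 82.1, 84.6 and 97.6 CPM at 15 months and 94.4, 93.2 and 82.0 CPM at 21 months, with the highest value in mouse 2 at 6 months. Its log2 fold change of -0.05 (SE 0.15) was positive without the 3 far libraries, at 0.20. Its counts were not whole in 3 of 9 libraries, and 16.3% of its exon bases lie on exons of Glt8d1 on the opposite strand.

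The channel itself had log2 fold changes of 0.26 (SE 0.13) for the pore subunit Sec61a1, 0.44 (SE 0.23) for Sec61b and 0.16 (SE 0.14) for Sec61g, with edgeR adjusted p of 0.496, 0.518 and 0.726. In the translocon-associated complex Ssr2 stood at 0.39 (SE 0.19), Ssr1 at 0.22 (SE 0.12) and Ssr4 at -0.04 (SE 0.10). Ssr3, the most abundant of the role per length, stood at 419.7, 475 and 453 CPM at 6 months, 357, 557 and 504 CPM at 15 months and 487, 513 and 448 CPM at 21 months. Its ages overlapped throughout, with 0.10 (SE 0.16) at 21 against 6 months, and 0.06 without mouse 1 at 6 months or mouse 2 at 21 months.

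**Figure D4:**
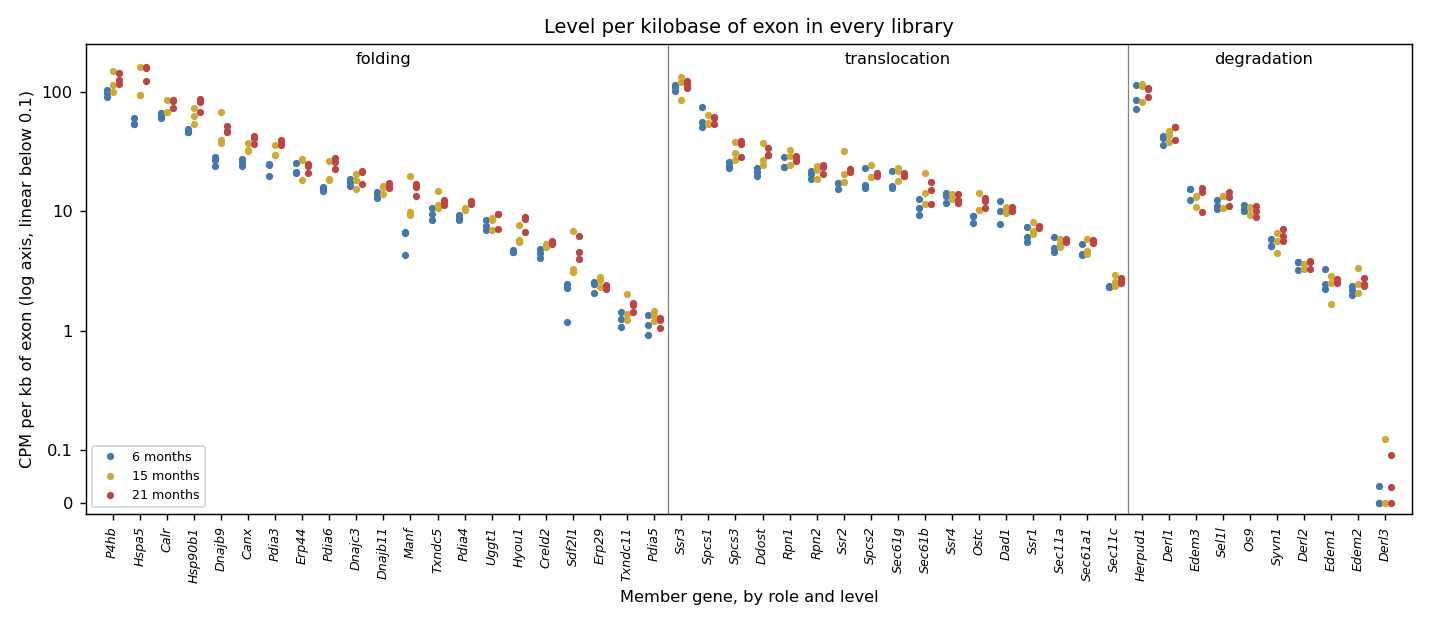
Level per kilobase of merged exon (CPM per kb, log axis with a linear part below 0.1) of all 48 members in each of the 9 libraries, grouped by role and ordered by mean level, with colour for age. P4hb, Ssr3 and Herpud1 lead their roles at 115, 112 and 97.9 CPM per kb, and Derl3 lies near 0.

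No degradation gene passed a criterion. None of the 9 tested had an unadjusted p under 0.05 in edgeR or passed in DESeq2 in any comparison, and in none did the older and younger mice separate. Herpud1, a membrane protein that organizes the degradation complex and a known stress target with an ERSE-II in its promoter, stood at 197, 266 and 166 CPM at 6 months, 192, 257 and 271 CPM at 15 months and 249, 246 and 211 CPM at 21 months. Its values overlapped across the ages, with a log2 fold change of 0.16 (SE 0.18, edgeR adjusted p = 0.791). It was 0.37 without mouse 2 and 0.03 without mouse 3 at 6 months, and 0.45 without the 3 far libraries. Derl1, a channel-forming derlin (Entrez ID 67819, chromosome 15, 57869502 to 57892418), measured 119, 141 and 136 CPM at 6 months, 126, 155 and 145 CPM at 15 months and 168, 167 and 130.3 CPM at 21 months. Mouse 3 at 21 months lay within the 6-month range, and the log2 fold change was 0.23 (SE 0.13), the largest of the role.

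The core ligase pair of the pathway is Syvn1, the ubiquitin ligase, and Sel1l, its adaptor. They averaged 30.6 ± 3.48 and 110.0 ± 14.5 CPM at 21 months, against 26.0 ± 2.14 and 96.6 ± 8.90 CPM at 6 months (SD over 3 mice), with log2 fold changes of 0.23 (SE 0.15) and 0.19 (SE 0.13). Edem1, Edem2 and Edem3, which trim mannose from chains marked for removal, had -0.03 (SE 0.20), 0.20 (SE 0.18) and -0.12 (SE 0.17). Edem3 was the most negative member of the list at 21 against 6 months, with 79.1, 98.2 and 98.5 CPM at 6 months, 68.9, 85.4 and 83.9 CPM at 15 months and 98.7, 91.3 and 63.0 CPM at 21 months. Its lowest value was in mouse 3 at 21 months, and without the 3 far libraries its sign was positive, at 0.10. Os9, a lectin that recognises the trimmed chains, had -0.08 (SE 0.11) and Derl2 0.02 (SE 0.10).

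At 15 against 6 months most members also had a higher mean. Of 47 members 42 had a positive log2 fold change, against 48.6% of all genes, with medians of 0.31 for folding, 0.18 for translocation and 0.06 for degradation genes. EdgeR called 0 members, where 0.00767% of all genes passed. At an unadjusted p under 0.05 16 members were higher, 11 of them folding and 5 translocation genes, against 4.91% of all genes, and none was lower, against 5.38%. DESeq2 called 3 higher, Hspa5, Manf and Dnajb9, against 0.307% of all genes, and 0 lower, against 0.568%. In 17 members all 3 mice at 15 months lay above all 3 at 6 months, against 6.64% of all genes, and in 0 did all lie below, against 7.14%. Both comparisons with 6 months use the same 3 young mice, so they are not independent.

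Mouse 2 at 15 months was high in most members. It had the highest level of its age in 37 of 47 members and the highest of all 9 libraries in 20. Its folding genes summed to 2837 CPM, against 2011 and 2074 CPM in the other mice of its age, and 46 of its 47 members lay above their mean over all libraries. Without this mouse the number of members with an unadjusted p under 0.05 and higher was 7 in place of 16, against 3.19% in place of 4.91% of all genes, the median of all members 0.10 in place of 0.20, and the median of the degradation genes -0.07 in place of 0.06. Its slow fibre markers, at 3520 CPM with 2825 CPM of that from Myh2, lay between those of the other mice of its age. Mouse 1 at 15 months, with the highest slow fibre sum of the series, had a median member level 0.11 below the mean over libraries on the log2 scale. Mouse 3 at 15 months, with the lowest slow fibre sum of its age, lay 0.02 below. A relation of slow fibre markers to member levels was not tested.

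**Figure D5:**
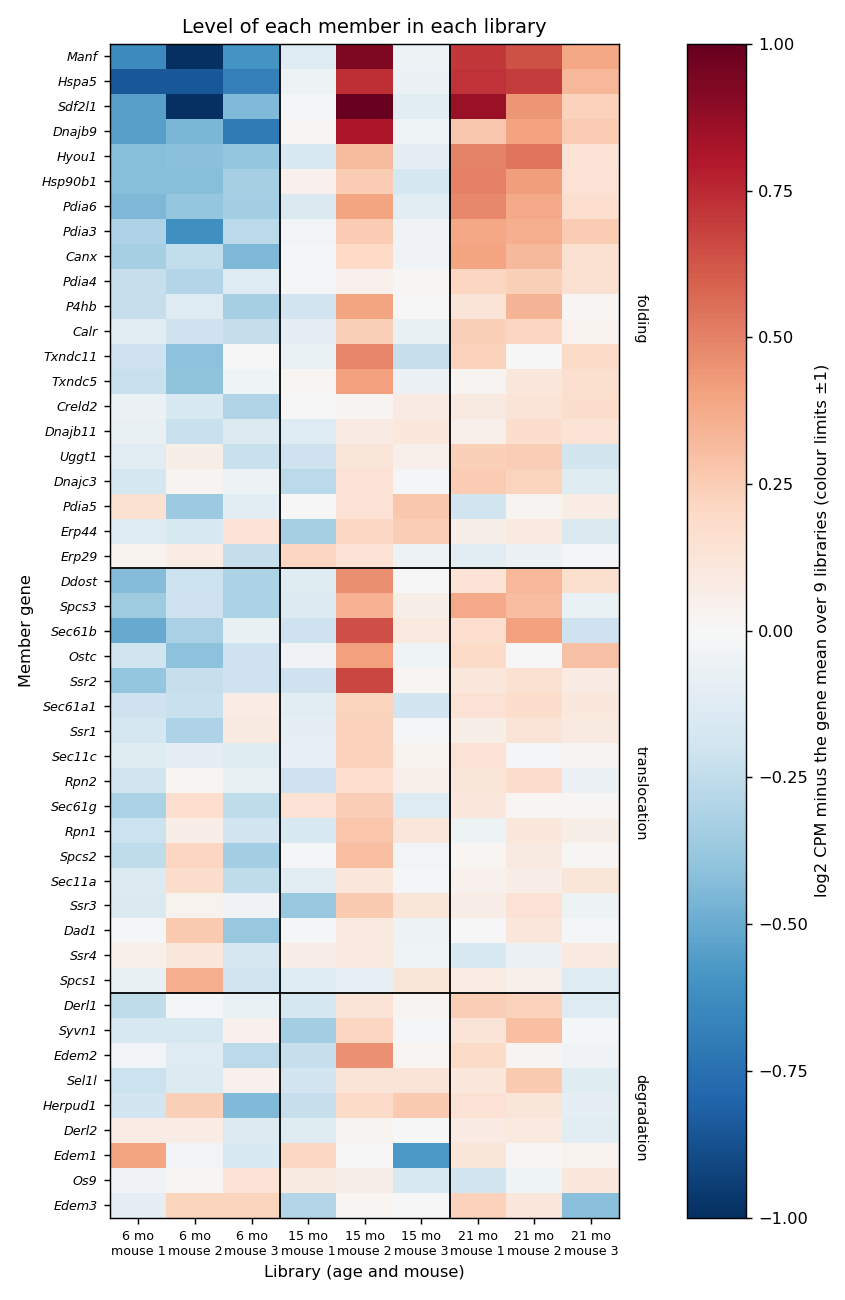
Log2 CPM of each of the 47 tested members in each library minus the mean of that gene over the 9 libraries, with genes in rows by role and fold change, libraries in columns by age, and the colour scale limited to 1 in either direction. Of the 21 folding genes 2, 3 and 2 are above their mean in mice 1, 2 and 3 at 6 months, 6, 21 and 6 at 15 months and 19, 20 and 17 at 21 months.

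At 21 against 15 months 4 members had an unadjusted p under 0.05 in edgeR and were higher, Hsp90b1, Canx, Pdia4 and Hyou1, against 1.08% of all genes, and 0 were lower, against 0.736%. Neither edgeR nor DESeq2 called any of the 47 members, where 0% of all genes passed in edgeR and 0.0153% were called higher in DESeq2. Those 4 had log2 fold changes of 0.31 (SE 0.13), 0.24 (SE 0.11), 0.19 (SE 0.08) and 0.36 (SE 0.14). In 3 members, Pdia3, Pdia4 and Creld2, all 21-month mice lay above all 15-month mice, against 2.84% of all genes, and in 0 did all lie below, against 3.3%. Of 47 members 32 had a positive log2 fold change, against 49.2% of all genes. The median over the list was 0.07, and 0.18 without mouse 2 at 15 months, when 10 members had such a p. Without mouse 1 or 3 at 15 months, or mouse 1 or 2 at 21 months, 0 members had one, and without mouse 1 at 6 months 1 had.

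Without the 3 libraries far out on the first principal component, 22 members had an unadjusted p under 0.05 and were higher at 21 against 6 months, 14 of them folding genes, against 6% of all genes, and edgeR called 0. The medians at 21 against 6 months were then 0.41 for folding, 0.25 for translocation and 0.25 for degradation genes. At 15 against 6 months the count was 22, against 4.85% of all genes, and in the mean of both older ages 28, against 5.93%. Markers of other cells that make much secretory protein were summed in the same libraries. Of 12 plasma and B cell markers 9 were in the table and 2 passed the filter, and their summed level was 8.40 to 10.1 CPM at 21 months and 6.63 to 9.26 CPM at 6 months. Most of that sum was Sdc1, which other cells also express. Jchain, a plasma cell product, stood at 2.46, 0.656 and 1.11 CPM in mice 1, 2 and 3 at 21 months, against 0.440, 0.376 and 0.245 CPM at 6 months. Those are low counts, of 41, 11 and 18 against 7, 6 and 4. All 3 of its 21-month values lay above its 6-month values, as in 22 of the 47 members, with a log2 fold change of 1.98 (SE 0.61, edgeR adjusted p = 0.269). Fibroblast and tendon cell markers summed to 1518 to 1653 CPM at 21 months and 1537 to 2195 CPM at 6 months, with 5 of 12 positive. Macrophage markers summed to 126 to 205 CPM at 21 months and 189 to 308 CPM at 6 months, with 0 of 10 positive. Their part in the results was not tested.

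Other genes of the same pathway, not in the list, had smaller medians. These lists were also drawn up with earlier results known. Of 35 tested genes of folding and quality control outside the list 5 had an unadjusted p under 0.05 and were higher at 21 against 6 months, and 0 were lower, against 5.14% and 5.5% of all tested genes, with a median of 0.06. The smallest p-values belonged to Qsox1, a sulfhydryl oxidase, at 0.43 (SE 0.10, edgeR adjusted p = 0.172), and Fkbp2, a prolyl isomerase, at 0.58 (SE 0.16, edgeR adjusted p = 0.221). Of 33 genes of translocation 5 were higher and 0 lower at that level, with a median of 0.05, led by Magt1, an oligosaccharyltransferase subunit, at 0.59 (SE 0.12, edgeR adjusted p = 0.101), and Srp72, of the signal recognition particle, at 0.46 (SE 0.12, edgeR adjusted p = 0.204). Of 37 genes of degradation 3 were higher and 0 lower, with a median of -0.01, led by Selenos, a selenoprotein of the degradation complex, at 0.75 (SE 0.15, edgeR adjusted p = 0.101), and Ubxn4 at 0.39 (SE 0.10, edgeR adjusted p = 0.205). EdgeR called 0 of the genes in these 3 lists, and DESeq2 called 2 translocation and 2 degradation genes higher, against 0.736% of all genes.

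Among 15 sensors and factors of the unfolded protein response 3 were higher and 2 lower at an unadjusted p under 0.05 at 21 against 6 months, against 5.14% and 5.5% of all tested genes, with a median of 0.11. Of these, Xbp1 passed in edgeR, with a mean of 190.4 ± 21.3 CPM at 21 months, against 87.6 ± 9.58 CPM at 6 months (SD over 3 mice), with a log2 fold change of 1.12 (SE 0.12, edgeR adjusted p = 0.0423). In alternatives added after seeing the data, that pass held in 5 of the 9 fits without 1 library. It was lost without mouse 1 or 2 at 6 months (edgeR adjusted p = 0.147 and 0.103), without mouse 1 or 2 at 21 months (0.209 and 0.177) and in the fit to only the ages compared (0.0521), while the log2 fold change stayed between 1.05 and 1.21 in the 9 fits. The sensors did not pass, with Ern1 at 0.11 (SE 0.12), Eif2ak3 at 0.11 (SE 0.13) and Atf6 at -0.04 (SE 0.12) on the log2 scale. Chac1, a target of the Atf4 arm, had the second smallest p of that group and the opposite sign, at -2.37 (SE 0.66, edgeR adjusted p = 0.228). Its value was 134 CPM in mouse 1 at 6 months, against 31.0 and 14.8 CPM in the other mice of that age. The others with an unadjusted p under 0.05 were Ddit3 at 0.53 (SE 0.22), Trib3 at 0.75 (SE 0.31) and Creb3l1 at -0.60 (SE 0.25). Atf4 itself stood at 0.01 (SE 0.16).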

How the data were processed

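RNA-seq of gastrocnemius was available as 1 table of estimated counts per gene, deposited by the authors. Per the submitters' processing notes, the genome build was mm10. The sources used here do not name the aligner, counter, annotation or strand setting. Per library 90% to 90.7% of values were whole (within 0.005), and the rest were rounded to whole numbers. Ages came from the sample titles. The members and gene lists were chosen with earlier results of these data known.

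EdgeR 4.0.16 (R 4.3.3) kept 13044 of 17314 genes with filterByExpr (minimum count 10), scaled by TMM (factors 0.923 to 1.05) and fitted a quasi-likelihood model over all 9 libraries with age as the factor, giving 4 comparisons. P-values were adjusted by Benjamini and Hochberg over all tested genes, with a threshold of 0.05. The biological coefficient of variation was 0.164. SE is the log2 fold change divided by the square root of the F statistic. Alternatives used DESeq2 1.42.0, limma 3.58.1 and changed filters, scalings and libraries. The fit was tested on simulated counts with known changes. Those counts were drawn for each gene on its own, so they do not cover a library that differs in many genes together. Total counts of 15354396 to 17317856 set the counting error. Level per kilobase divides CPM by merged GENCODE exons, and promoters came from RefSeq. Values in every library were given for members past the threshold, the 12 with the smallest p at 21 against 6 months, the 5 at each of the other pairs of ages, and, per role, the 2 highest per kilobase and the most positive and most negative; the other members were given more briefly. Of the other pathway lists, called genes, the 2 smallest p per list and Xbp1 were named. The sensors, Ddit3, Trib3, Creb3l1 and Atf4 were named after their values were seen. No 2 libraries of an age agreed within sampling noise (chi-square per degree of freedom of at least 10.38).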

Additional observations from a re-analysis of the deposited data

How the results depend on the processing

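At 21 against 6 months edgeR called 0 members, DESeq2 10, limma voom with sample quality weights 6, the fit with no filter on low counts 2 and the fit to only the ages compared 1. Leaving out each library gave 0 to 1, with 1 without mouse 2 at 15 months. At 15 against 6 months edgeR called 0 and DESeq2 3, and leaving out each library gave 0 to 0, as at 21 against 15 months. In the mean of both older ages edgeR called 1, DESeq2 12, voom 5, no filter 3, and 0 with total count scaling, the replicate block or without the 3 far libraries; leaving out each library gave 0 to 1. The replicate numbers were not taken to pair the mice. Same-numbered libraries had correlations of deviations from -0.42 to 0.41. Differently numbered ones had similar values, such as 0.40 for mouse 1 at 15 and mouse 3 at 21 months, and -0.37 for mouse 1 at 6 and mouse 3 at 15 months. These correlations therefore cannot decide whether a number marks a shared batch. Under the block Hspa5 had 1.19 (edgeR adjusted p = 0.0949) in the mean of both older ages, and 0 members were called at 21 against 6 months. The median of members stood at 0.31 in the mean of both older ages without the 3 far libraries, and between -0.0094 and 0.18 at 21 against 15 months with each library left out. Over all genes edgeR called 2, 1, 0 and 36 genes in the 4 comparisons and DESeq2 200, 114, 3 and 323; leaving out each library gave 0 to 42, 0 to 10, 0 to 0 and 0 to 74. At 21 against 6 months the sign turned for Erp29 (0.0645 with total count scaling, 0.0132 without the 3 far libraries, -0.10 to 0.0344 with each library left out), for Spcs1 (0.0403 with total count scaling, 0.0414 with voom, 0.20 without the 3 far libraries, -0.15 to 0.13 with each left out) and for Edem3 (0.0354 with voom, 0.0981 without the 3 far libraries, -0.25 to 0.0487 with each left out). The cause was not tested. With 3 mice per age and this spread, a difference that missed the threshold is not shown to be absent.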
